A study of Mus musculus with 2 samples.

Results

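Cholesterol and fatty acid genes were examined in dorsal striatum of mice that had self-administered cocaine. The set comprised 43 genes, picked by name for their roles in cholesterol synthesis, its control, lipid transport, fatty acid binding and fatty acid synthesis. All 43 were present among the 32531 gene symbols in the counts, and all 43 passed the filter of at least 50 counts over both libraries, as did 12213 genes in all. The mice carried the Drd1-EGFP/Rpl10a transgene (Drd1-TRAP line CP73, a BAC transgene that tags ribosomes in cells expressing the dopamine receptor Drd1) on an FVB/N-Swiss Webster background bred to C57BL/6 for a minimum of 9 generations. All animals had long-access intravenous cocaine. The groups differed in whether intake was labelled escalating or nonescalating, and each was represented by 1 library of input RNA, meaning RNA of the whole dissected tissue without purification of tagged ribosomes. The sources used here do not give age, sex or how many animals were pooled for a library, and a cocaine-free group was not analysed here. Paired values below are given with the escalating library first.

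The brain makes nearly all of its own cholesterol, because lipoproteins of the blood do not cross into it. Synthesis runs from acetyl-CoA through mevalonate and squalene to lanosterol, and then through a series of sterol intermediates to cholesterol. Transcription of these enzymes is driven by the SREBP factors, which the escort protein Scap carries out of the endoplasmic reticulum when sterols are scarce and which Insig proteins hold back when sterols are plentiful. In adult brain, oligodendrocytes use cholesterol for myelin, and astrocytes load it onto Apoe particles through Abca1 for delivery to neurons, which clear the excess through Cyp46a1.

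With 1 library per group there is no replicate check and no test between the groups, so each ratio compares these libraries and not the conditions. Each ratio of escalating over nonescalating carries an exact 95% Clopper-Pearson interval, which covers counting error only. Calls required a ratio of at least 1.5-fold, on library sizes scaled by the TMM method, and an interval without 1. The libraries held 9548358 and 9376097 assigned reads, in that order. They also differed in what was left unassigned: 28.6% and 18.1% of reads fell on no feature used for counting, and 8.06% and 18.9% on more than 1 gene.

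The striatal identity of both libraries was checked with 12 markers of projection neurons. These summed to 8245 and 7336 CPM, the unit for read counts relative to the scaled library size, and none was at 0. Pan-neuronal markers summed to 7791 and 6552 CPM over 10 genes, with a median log2 ratio of 0.29. Glial markers differed far more. Astrocyte markers summed to 2217 and 15457 CPM, with 12 of 12 called lower in the escalating library and log2 ratios from -3.22 to -0.79. Most of both sums came from Slc1a2, with 1421 and 13256 CPM and the widest ratio of the 12, whose median log2 ratio was -1.83. Microglia markers summed to 34.9 and 1552 CPM, with 12 of 12 lower, ratios from -7.94 to -2.01, and Trem2 at 0 in the escalating library. Mature oligodendrocyte markers summed to 1736 and 4214 CPM, with 8 of 12 lower and ratios from -2.14 to -0.24. Endothelial markers summed to 76.2 and 151 CPM with 9 of 10 lower, and oligodendrocyte precursor markers to 145 and 312 CPM with 4 of 6 lower and 1 higher. Scaling to total reads left 12 of the 12 microglial and 10 of the 12 astrocyte markers lower, but only 5 of the 12 mature oligodendrocyte and 5 of the 10 endothelial markers, and 3 of the 6 precursor markers. In bulk tissue, fewer cells of a type and less RNA per cell cannot be told apart, and the part of these glial differences in the lipid gene results below was not tested.

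Of the 43 lipid genes, 19 were called lower in the escalating library and 2 were called higher, while 22 were not called. Those shares were 44.2% lower and 4.65% higher, beside 17.1% lower and 9.36% higher over all 12213 measured genes. The median log2 ratio was -0.48, against 0.02 over all measured genes, and 35 of the 43 ratios were below 1. The widest differences were in the desaturases Scd1, Fads2 and Fads1, in the lipoprotein genes Apoe and Clu, in the efflux pump Abca1 and in the astrocytic fatty acid binding protein Fabp7. Enzymes of the mevalonate arm, the fatty acid synthase Fasn, the lipase Lpl and the neuronal cholesterol hydroxylase Cyp46a1 stayed within 1.5-fold, with the exception of Idi1 in the mevalonate arm.

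**Figure D1:**
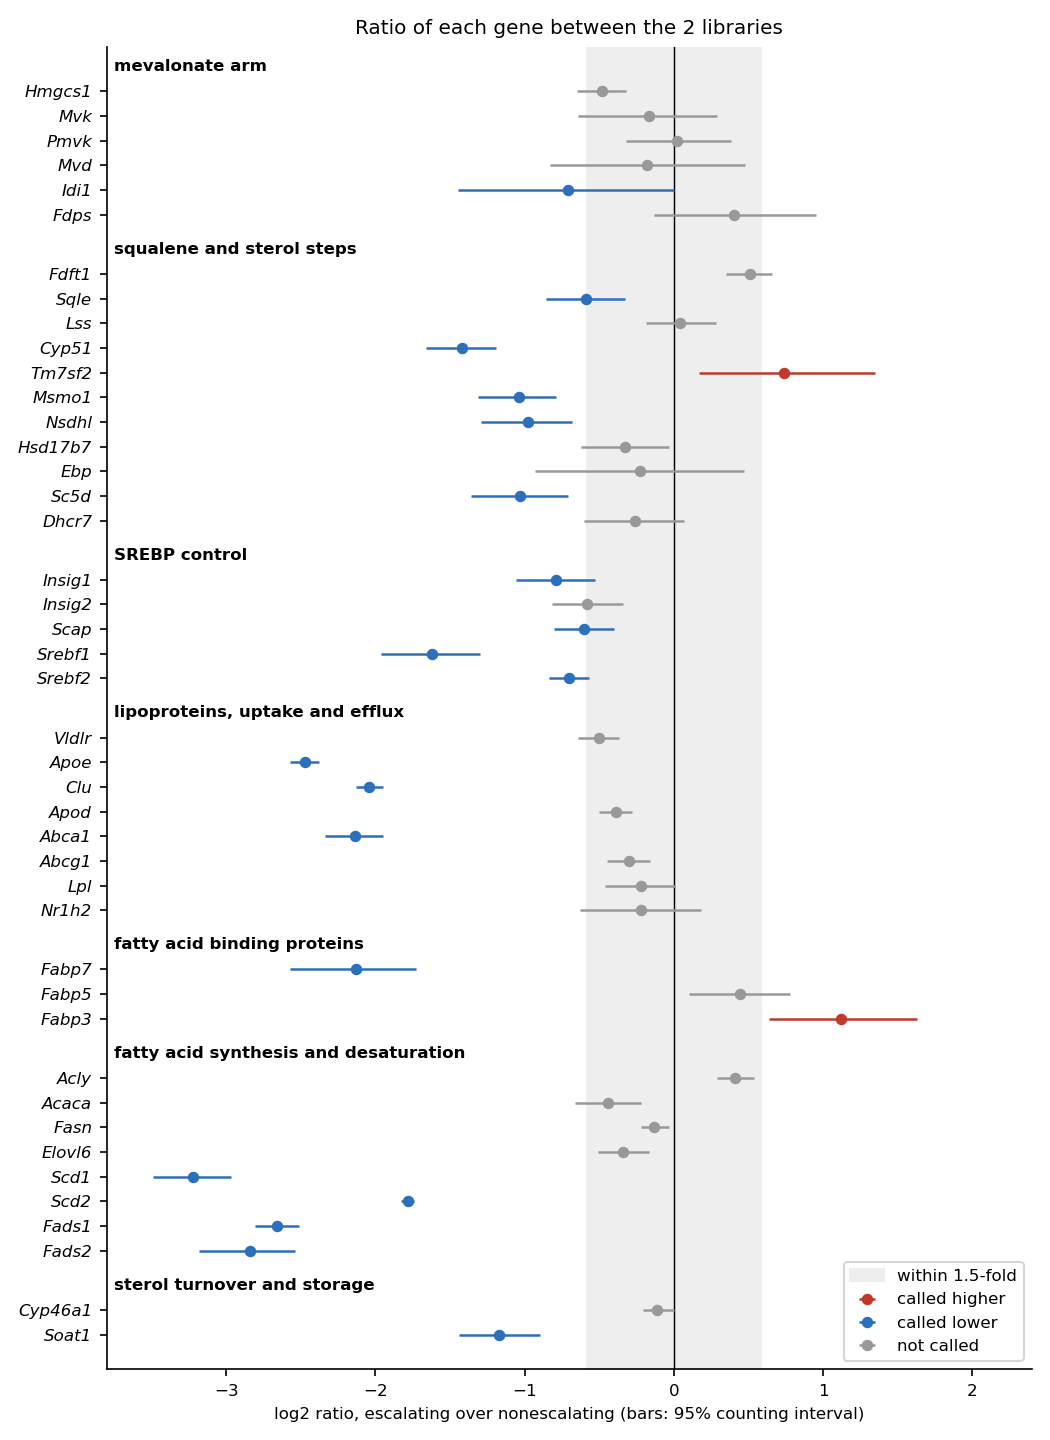
Log2 ratio of escalating over nonescalating for each of the 43 genes, by role, with its 95% counting interval; the grey band spans 1.5-fold in either direction and colours give the call. The 19 genes called lower run from Sqle at -0.59 to Scd1 at -3.22, and only Tm7sf2 (0.74) and Fabp3 (1.12) were called higher.

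The calls depended in part on scaling. With library sizes taken as total assigned reads, the median ratio over all measured genes moved up by 0.36 log2 to 0.38. The lipid genes then had 14 lower and 6 higher, beside 9.40% lower and 31.5% higher over all measured genes, and a median of -0.12. All 14 of the former were among the 19 called with TMM scaling. The 5 that were lost were Idi1, Sqle, Insig1, Scap and Srebf2, and the 4 gained in the higher direction were Fdps, Fdft1, Fabp5 and Acly. A further 11 genes changed the sign of their ratio between the scalings, and none of these was called under either (Mvk, Mvd, Hsd17b7, Ebp, Dhcr7, Abcg1, Lpl, Nr1h2, Fasn, Elovl6 and Cyp46a1).

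**Figure D2:**
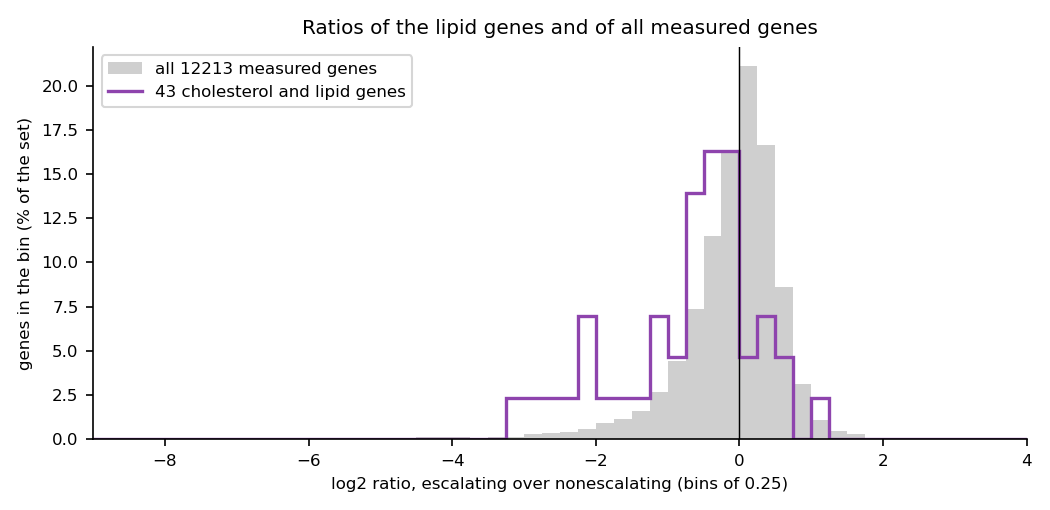
Share of genes in each 0.25-wide bin of the log2 ratio, for the 43 cholesterol and lipid genes (line) and for all 12213 measured genes (grey). The lipid genes are centred at -0.48 and extend down to -3.22, while all measured genes are centred at 0.02.

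Together the 43 genes had 23921 and 40972 counts, which is 0.251% (interval 0.247 to 0.254) and 0.437% (0.433 to 0.441) of assigned reads. Scd2, Apoe and Clu accounted for 30.0% of these reads (29.4 to 30.6) where intake escalated and for 52.3% (51.8 to 52.8) where it did not. Levels of different genes were compared per kb of annotated exon, with the exons of all transcripts of a gene merged. The intervals of these levels do not cover that choice of length. In the nonescalating library Scd2 and Apoe led at 278 (exact Poisson interval 273 to 283) and 275 (267 to 283) CPM per kb, with overlapping intervals, followed by Clu at 140.1 and, well below, Apod at 62.1. In the escalating library Scd2 stood alone at 80.7 (78.4 to 83.0), and Apoe at 49.5 (46.7 to 52.4), Cyp46a1 at 48.9 (46.6 to 51.2) and Apod at 47.4 (44.9 to 50) could not be ordered beyond counting error. Cyp46a1 thus ranked 3 and 6 of the 43, with 48.9 and 52.6 CPM per kb. The lowest was Idi1 in the escalating library, at 0.817, and Tm7sf2 in the nonescalating library, at 1.02.

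**Figure D3:**
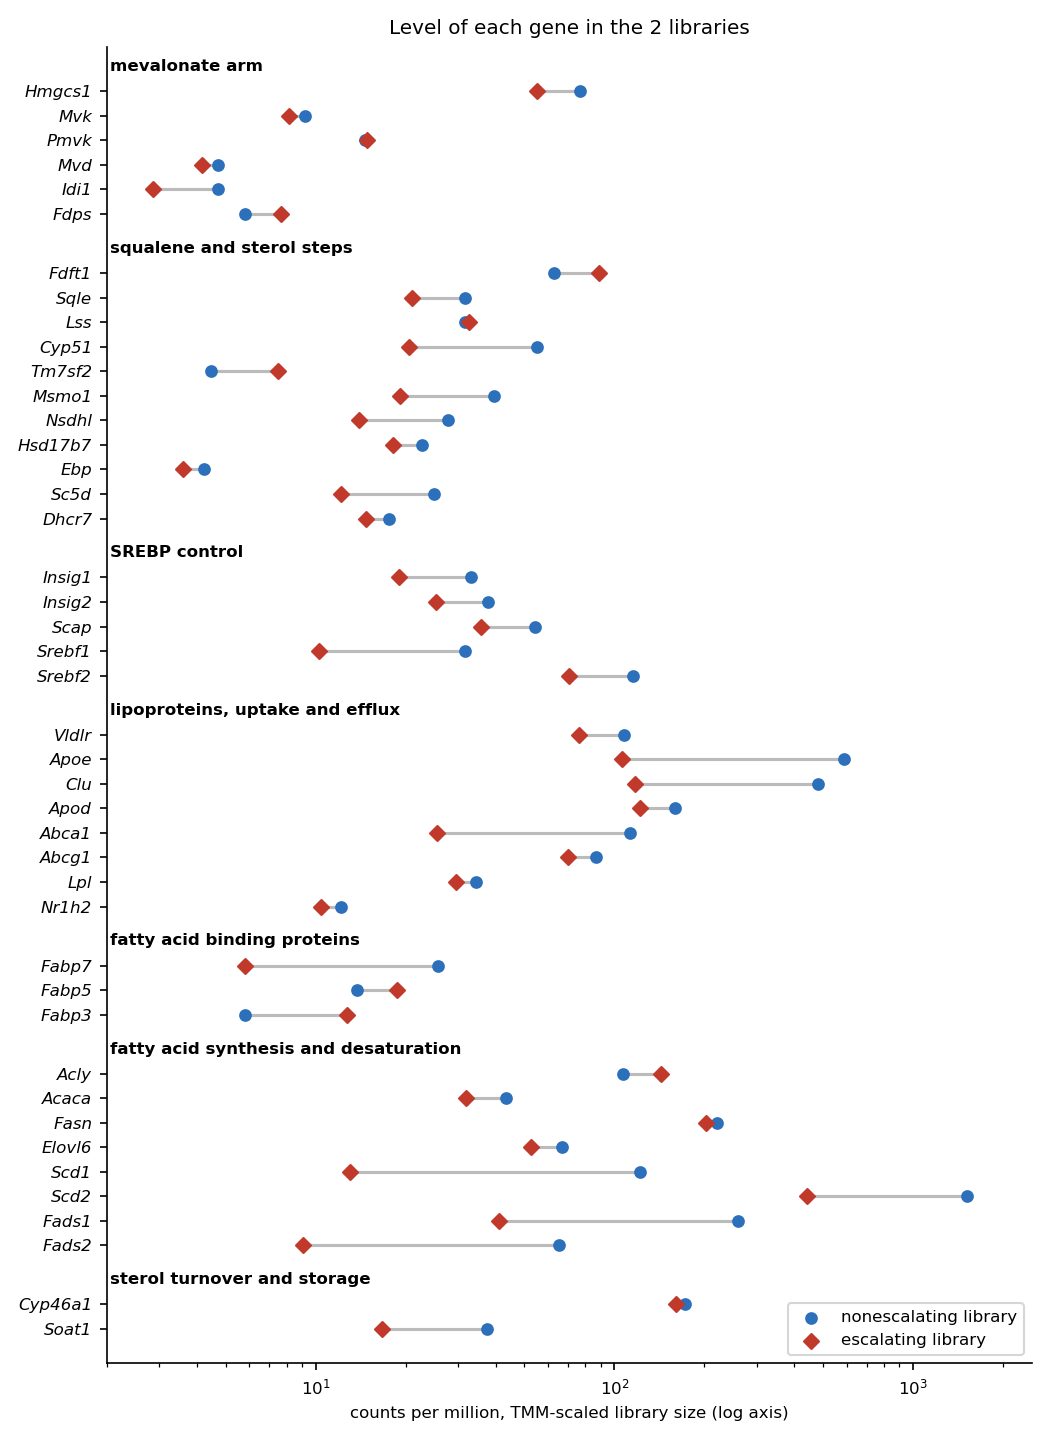
Level of each gene in the escalating library (red diamonds) and the nonescalating library (blue circles), in CPM on a log axis, by role. Levels run from 2.86 CPM for Idi1 in the escalating library to 1519.5 CPM for Scd2 in the nonescalating library, and the longest connecting lines belong to Scd1, Fads2, Fads1 and Apoe.

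SREBP factors act on the stretch just before the start of their target genes. Promoters of 3 of the genes are shown here. Hmgcs1, the entry enzyme of the pathway, was not called. Sc5d, a late sterol enzyme, was called lower, as was Abca1, the efflux pump. Whether SREBP factors act at these promoters was not tested. Each is the 250 bases before the RefSeq start site (build GRCm38.p6), printed 5′ to 3′ on the strand of the gene. They lie at chr13:119690101-119690350 on the plus strand, chr9:42264301-42264550 on the minus strand and chr4:53159896-53160145 on the minus strand. No GENCODE M21 exon overlaps them. Capitals mark matches on either strand to a sterol regulatory element spelled TCACNCCAC, an E-box spelled CACGTG and the CCAAT box, of which the last reads ATTGG on the other strand. None of these motifs overlapped another here.
Hmgcs1: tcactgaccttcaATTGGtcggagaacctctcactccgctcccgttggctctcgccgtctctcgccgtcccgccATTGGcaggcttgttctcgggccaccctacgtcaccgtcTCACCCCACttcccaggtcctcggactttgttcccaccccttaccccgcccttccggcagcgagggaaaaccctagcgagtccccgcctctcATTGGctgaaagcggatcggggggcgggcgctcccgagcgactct
Sc5d: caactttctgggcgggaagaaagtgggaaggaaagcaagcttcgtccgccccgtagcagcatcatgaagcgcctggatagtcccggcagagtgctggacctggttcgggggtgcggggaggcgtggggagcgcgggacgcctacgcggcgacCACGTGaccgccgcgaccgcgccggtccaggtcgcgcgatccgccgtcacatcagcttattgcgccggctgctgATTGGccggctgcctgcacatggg
Abca1: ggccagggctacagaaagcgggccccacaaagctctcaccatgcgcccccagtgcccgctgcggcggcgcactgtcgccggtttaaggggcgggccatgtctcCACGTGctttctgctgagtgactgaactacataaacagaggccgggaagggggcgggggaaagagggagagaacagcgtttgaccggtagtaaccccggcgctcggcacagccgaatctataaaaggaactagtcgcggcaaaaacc

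The Hmgcs1 promoter held 1 sterol regulatory element, which begins 137 bases before the start, and 3 CCAAT boxes. The Sc5d promoter held 1 E-box and 1 CCAAT box, and the Abca1 promoter 1 E-box. RefSeq promoter windows of 300 bases, which run on 50 bases past the start, were found for 33 of the 43 genes, 44 windows in all. Fdps, Fdft1, Sqle, Clu, Abcg1, Lpl, Fabp5, Scd1, Scd2 and Fads1 had none. The sterol element spelling occurred in 1 of the 44 windows (2.27%), beside 1.24% of all 32851 windows. The CCAAT box occurred in 25 (56.8%, beside 37.4%) and the E-box in 7 (15.9%, beside 7.15%). Counted by gene, since some genes have more than 1 window, 10 of 14 genes called lower held a CCAAT box in any window, as did 13 of 17 genes not called. The E-box was in 4 of the 14 and in 2 of the 17. These are matches of letters and not binding sites.

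In the mevalonate arm, 1 of 6 genes was called lower and none higher, with a median log2 ratio of -0.18, or 0.18 when scaled to total reads. That is 16.7% lower, close to the 17.1% over all measured genes, of which 9.36% were higher. The same shares stand beside the counts of each role below, or 9.40% lower and 31.5% higher with total-read scaling. Hmgcs1, which makes HMG-CoA (chromosome 13, 119690379 to 119708260), had 595 counts (55.0 CPM) in the escalating library and 636 (76.9 CPM) in the nonescalating one. Its level was 1.40-fold lower (1.25 to 1.57), under the threshold. Mevalonate kinase, Mvk, had 8.13 and 9.19 CPM, phosphomevalonate kinase, Pmvk, 14.9 and 14.6 CPM, and the decarboxylase Mvd 4.16 and 4.71 CPM. Their intervals all included 1. Idi1, which isomerises the first isoprenoid unit, had 31 and 39 counts and was 1.65-fold lower, but its interval (1.0 to 2.73) only just excluded 1. Fdps, which joins these units into farnesyl diphosphate, had 83 and 48 counts, and its ratio of 1.32-fold higher (0.916 to 1.93) was within counting error.

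Of the next 3 genes, which lead up to lanosterol, 1 was called lower and none higher. Fdft1, the squalene synthase that commits farnesyl units to sterols (chromosome 14, 63145150 to 63179578), had 963 counts (89.0 CPM) in the escalating library and 518 (62.6 CPM) in the nonescalating one. It was 1.42-fold higher (1.28 to 1.58), below the threshold, although its interval excluded 1. The squalene epoxidase gene Sqle had 21 and 31.7 CPM and was 1.51-fold lower (1.26 to 1.81), just past the threshold. Lanosterol synthase, Lss, had 32.6 and 31.7 CPM, a ratio indistinguishable from 1 (1.03-fold, 0.876 to 1.21).

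Beyond lanosterol, 4 of 8 enzymes were called lower. Cyp51, the lanosterol demethylase (chromosome 5, 4081145 to 4104746), had 222 counts (20.5 CPM) in the escalating library and 455 (55.0 CPM) in the nonescalating one. It was 2.68-fold lower (2.28 to 3.16), the widest gap among the synthesis enzymes. Msmo1, which takes part, as Nsdhl does, in removing the methyl groups at position C4, had 207 and 327 counts, a level 2.07-fold lower (1.73 to 2.47). Nsdhl itself had 152 and 230 counts, a level 1.98-fold lower (1.61 to 2.45). Sc5d, a desaturase near the end of the pathway, had 132 and 206 counts, a level 2.04-fold lower (1.63 to 2.56). These 4 genes remained called with total-read scaling, at log2 ratios of -1.06, -0.68, -0.62 and -0.67. The other enzymes of this stretch did not share that size of difference. Hsd17b7 had 18.1 and 22.7 CPM, Ebp 3.60 and 4.23 CPM, and Dhcr7, the last reductase, 14.7 and 17.6 CPM, none of them called. Tm7sf2, a sterol reductase, went the other way, with 81 and 37 counts, and was 1.67-fold higher (1.12 to 2.54).

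Taking the 17 synthesis enzymes as a chain, the 9 up to lanosterol had a median log2 ratio of -0.17 and summed to 235 and 242 CPM. The 8 after lanosterol had a median of -0.65 and summed to 110 and 196 CPM. With total-read scaling the medians were 0.18 and -0.29. The division at lanosterol was drawn after these values were seen and has no test. Within each stretch the spread was wide, from -0.71 to 0.51 in the former and from -1.42 to 0.74 in the latter.

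**Figure D4:**
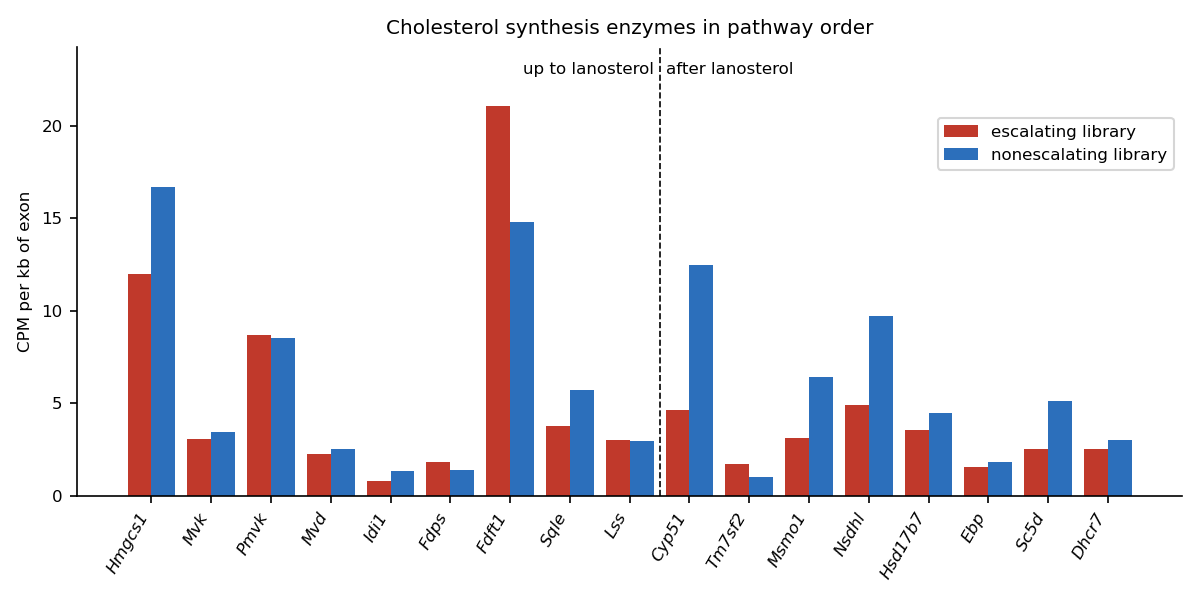
Levels of the 17 cholesterol synthesis enzymes in pathway order, in CPM per kb of exon, in the escalating (red) and nonescalating (blue) library; the dashed line marks lanosterol. Fdft1 is the highest bar in the escalating library at 21.1, and Cyp51 stands at 12.5 in blue and 4.65 in red.

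The genes that control the pathway were all at a lower level in the escalating library under both scalings, and 4 of 5 were called, or 1 of 5 with total-read scaling. Over all measured genes 17.1% were lower, or 9.40% with total-read scaling. Srebf1, which encodes the SREBP form associated mainly with fatty acid synthesis (chromosome 11, 60199089 to 60222581), had 111 counts (10.3 CPM) in the escalating library and 262 (31.7 CPM) in the nonescalating one. It was 3.09-fold lower (2.46 to 3.89) and is the 1 that was also called with total-read scaling. Srebf2, the form associated mainly with cholesterol synthesis, had 70.6 and 115 CPM and was 1.63-fold lower (1.48 to 1.79). Per kb of exon, Srebf2 stood at 9.83 and 16 CPM and Srebf1 at 1.82 and 5.62 CPM. Of the reads of the pair, Srebf1 made up 12.7% (10.6 to 15.1) and 21.6% (19.3 to 24). The escort gene Scap had 35.8 and 54.3 CPM and was 1.52-fold lower (1.32 to 1.74). The retention factor Insig1, itself an SREBP target, had 19.0 and 33.0 CPM and was 1.73-fold lower (1.44 to 2.09), and its relative Insig2, with 25.3 and 37.8 CPM, sat just under the threshold at 1.49-fold lower (1.27 to 1.76). The shares of Insig1 in the pair, 42.9% (38.4 to 47.5) and 46.6% (42.5 to 50.7), overlapped within counting error.

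The lipoprotein and efflux genes split into 3 with large differences and 5 with small ones. Apoe, the main apolipoprotein of brain (chromosome 7, 19696109 to 19699188), had 1145 counts (106 CPM) in the escalating library and 4860 (587 CPM) in the nonescalating one. It was 5.55-fold lower (5.2 to 5.93). Clu, which encodes the apolipoprotein clusterin (chromosome 14, 65968483 to 65981547), had 1266 and 3984 counts, a level 4.12-fold lower (3.86 to 4.39). Abca1, which moves cholesterol onto apolipoproteins (chromosome 4, 53030787 to 53159895), had 276 counts (25.5 CPM) and 931 (113 CPM), respectively, a level 4.41-fold lower (3.85 to 5.06). Beside these stand the astrocyte markers, whose median log2 ratio was -1.83, and the microglia markers, at -5.72.

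The remaining genes of this role stayed within 1.5-fold. Abcg1, a second sterol efflux pump, had 70.1 and 86.7 CPM (1.24-fold lower, 1.11 to 1.37), so that the 2 pumps differed from each other in the size of the gap, with intervals that do not overlap. Apod, an apolipoprotein expressed by glia, had nearly equal counts, 1322 and 1323, which is 122 and 159.9 CPM (1.31-fold lower, 1.21 to 1.41). Its interval likewise lay apart from those of Apoe and Clu. Vldlr, a receptor for Apoe particles and for reelin, had 76.2 and 108 CPM (1.42-fold lower, 1.29 to 1.56). Lipoprotein lipase, Lpl, had 29.4 and 34.3 CPM, and Nr1h2, the sterol-sensing receptor LXR beta, which activates Abca1 and Srebf1, had 10.4 and 12.2 CPM. The intervals of both included 1.

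The fatty acid binding proteins, small carriers of fatty acids within the cell, went in opposite directions. Fabp7, known from astrocytes and radial glia, had 63 counts (5.82 CPM) in the escalating library and 212 (25.6 CPM) in the nonescalating one. It was 4.40-fold lower (3.31 to 5.93). Fabp3, the form known from heart and from neurons, had 137 counts (12.7 CPM) and 48 (5.80 CPM), respectively, a level 2.18-fold higher (1.56 to 3.10). Fabp5 had 202 and 114 counts, a level 1.35-fold higher (1.07 to 1.72), under the threshold, though it was called with total-read scaling. Fabp7 therefore made up 31.5% (25.1 to 38.4) and 81.5% (76.3 to 86.1) of the combined Fabp7 and Fabp3 reads, a contrast within each library that does not depend on scaling. The astrocyte and pan-neuronal markers had medians of -1.83 and 0.29 beside them.

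Among the 8 genes of fatty acid synthesis and desaturation, 4 were called lower and none higher. Acly, Acaca, Elovl6 and Fasn, which supply, build or lengthen the chain, were not called, although Acly was called higher with total-read scaling. Acly, which supplies acetyl-CoA, had 143 and 107 CPM (1.33-fold higher, 1.23 to 1.45), the carboxylase Acaca 31.9 and 43.3 CPM (1.36-fold lower, 1.17 to 1.58), and the elongase Elovl6 52.7 and 66.7 CPM (1.27-fold lower, 1.12 to 1.43). Fasn, the synthase itself, had 2182 and 1820 counts, or 202 and 220.0 CPM, and its ratio was close to 1 (1.09-fold lower, 1.02 to 1.16).

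All 4 desaturases were called lower under both scalings. Scd1, which makes monounsaturated fatty acids (chromosome 19, 44394455 to 44407879), had 141 counts (13.0 CPM) in the escalating library and 1006 (122 CPM) in the nonescalating one. It was 9.33-fold lower (7.82 to 11.2), the widest gap of the 43 genes, and only 0.884% of all measured genes had a lower ratio. Scd2, the main brain form of the same activity (chromosome 19, 44293674 to 44306864), had 4771 counts (441 CPM) and 12572 (1519.5 CPM), respectively, a level 3.45-fold lower (3.33 to 3.56). Per kb of exon Scd1 was the lower of the pair in both libraries, at 2.66 and 24.9 CPM against 80.7 and 278 CPM for Scd2. It held 2.87% (2.42 to 3.38) and 7.41% (6.97 to 7.86) of the reads of the pair.

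Fads1 and Fads2 introduce the double bonds of long polyunsaturated fatty acids. Fads1 (chromosome 19, 10182888 to 10196877) had 446 counts (41.2 CPM) in the escalating library and 2152 (260.1 CPM) in the nonescalating one and was 6.31-fold lower (5.70 to 7.0). Fads2 (chromosome 19, 10062765 to 10101746) had 98 and 541 counts, a level 7.22-fold lower (5.81 to 9.05). The intervals of the 2 ratios overlapped, and Fads1 held 82.0% (78.5 to 85.1) and 79.9% (78.3 to 81.4) of the reads of the pair, so that no difference in their proportion was detectable. Each of the 2 pairs lies within 1 region of chromosome 19: the annotated ends of Fads1 and Fads2 are 81.1 kb apart, and those of Scd1 and Scd2 87.6 kb. Beside the log2 ratios of the 4 desaturases, -3.22 to -1.78, the astrocyte markers had a median of -1.83 and the mature oligodendrocyte markers, from cells that make myelin lipid, one of -0.84.

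Cyp46a1 and Soat1 dispose of cholesterol in different ways. Cyp46a1, the neuronal enzyme that hydroxylates cholesterol for export from brain (chromosome 12, 108334381 to 108362234), had 1738 counts (161 CPM) in the escalating library and 1431 (173 CPM) in the nonescalating one. Its ratio was 1.08-fold lower (1.0 to 1.16), among the closest to 1 of the 43 genes. Soat1, which esterifies cholesterol for storage, had 181 and 311 counts, a level 2.25-fold lower (1.86 to 2.71).

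A further 62 genes of the same pathways were listed from textbook roles, with earlier results of these data known. Of 56 measured, 23 (41.1%) were called lower and 3 (5.36%) higher, with a median log2 ratio of -0.35. Over all measured genes the shares were 17.1% lower and 9.36% higher, which also stand beside the TMM counts of each group below. With total-read scaling the 56 gave 17 lower and 9 higher, beside 9.40% and 31.5% over all measured genes, with a median of 0.01. Listed genes of fatty acid elongation and activation leaned lower, with 11 of 19 called and none higher (median -0.93). With total-read scaling 9 were lower and 1 higher (median -0.57). Among them were Elovl2 and Elovl5, elongases of polyunsaturated chains, which were 2.91-fold (2.39 to 3.54) and 2.32-fold lower (2.06 to 2.63). The acyl-CoA synthetases Acsl6 and Acsl3 were 3.35-fold (3.06 to 3.67) and 2.62-fold lower (2.39 to 2.87). Tecr, the reductase of the elongation cycle and the gene with the most reads in this group, had 299 and 373 CPM and was not called.

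Sterol trafficking genes were called lower in 8 of 17 cases and higher in none, with a median of -0.51. With total-read scaling 6 were lower and 2 higher, with a median of -0.15. The lysosomal cholesterol exporters Npc1 and Npc2 were 2.66-fold (2.39 to 2.96) and 3.01-fold lower (2.48 to 3.66). The lysosomal lipase Lipa was 2.30-fold lower (1.76 to 3.01). The lipoprotein remodelling genes Pltp and Lcat were 3.86-fold (2.86 to 5.26) and 3.63-fold lower (2.86 to 4.64). Mylip, a ligase that marks lipoprotein receptors for breakdown, was 2.62-fold lower (2.02 to 3.41), Abca7 2.16-fold (1.25 to 3.8) and the receptor Lrp8 1.55-fold lower (1.36 to 1.78). Abca2, a lipid transporter and the gene with the most reads here, had 115 and 157 CPM and was not called.

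Genes of sterol sensing had a median of -0.34 (0.02 with total-read scaling) and 3 of 7 lower, among them the ubiquitin ligase Rnf139 at 1.94-fold (1.48 to 2.56) and the SREBP protease Mbtps2 at 1.54-fold (1.23 to 1.92). Mbtps1, the protease that cuts first, had 88.0 and 72.0 CPM and was not called. Of sterol turnover genes 1 of 3 measured was lower, Hsd3b7 at 2.12-fold (1.39 to 3.29). Ch25h and Soat2 had 0 and 1 counts each, which is too few for any comparison. The isoprenoid branch and acetyl-CoA supply had 3 of 10 called higher, with none lower and a median of 0.29. With total-read scaling 5 of 10 were higher, with a median of 0.65, when 31.5% of all measured genes were also higher. With TMM scaling none of the other 4 groups had a gene called higher, whereas with total-read scaling all but sterol turnover did. The 3 isoprenoid branch genes called higher with TMM scaling were Coq2, Pdss2 and Fntb. Coq2, of ubiquinone synthesis, had 170 and 63 counts (2.06-fold, 1.54 to 2.80). Pdss2, of the same synthesis, had 59 and 26 counts (1.74-fold, 1.08 to 2.87). The farnesyltransferase subunit Fntb was at 1.5-fold (1.24 to 1.82), on the threshold.

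**Figure D5:**
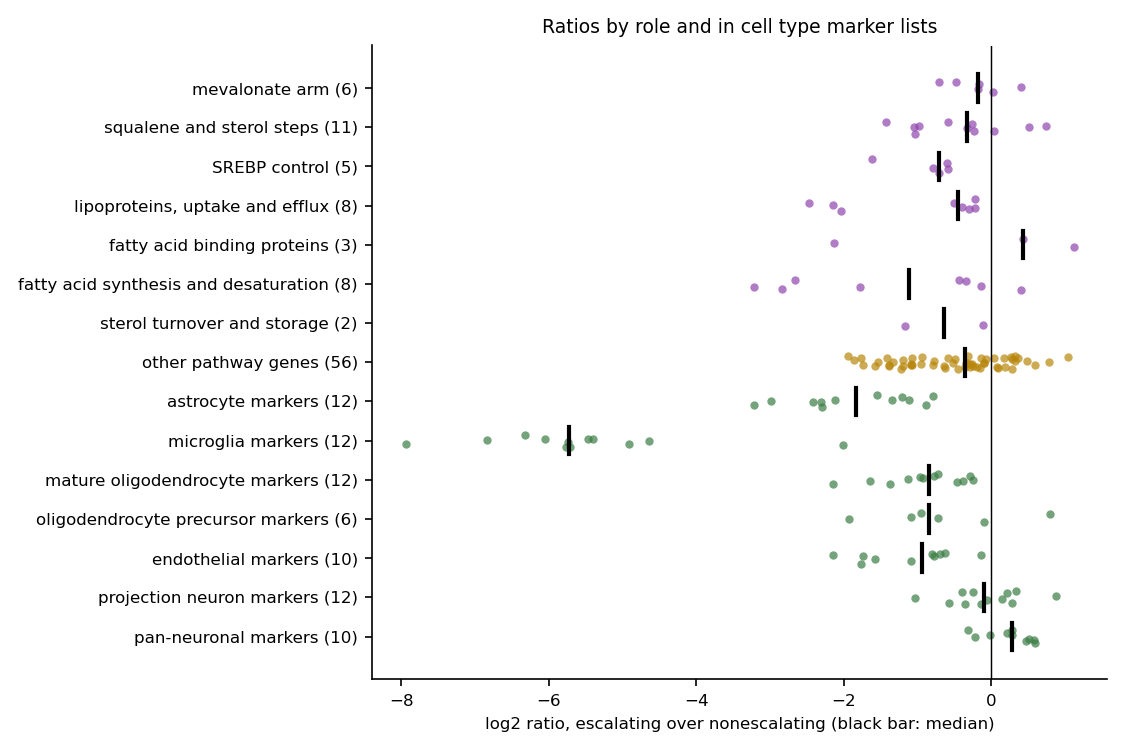
Log2 ratio of escalating over nonescalating for each measured gene, by role for the 43 lipid genes (purple), for 56 other pathway genes (gold) and for marker lists (green), with black bars at the medians; vertical scatter within a row is only for display. Microglia markers lie farthest down at a median of -5.72, astrocyte markers at -1.83, the fatty acid group at -1.11, and pan-neuronal markers at 0.29.

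Some counts are uncertain because reads could be shared with or lost to other genes. Reads on more than 1 gene were 8.06% of listed reads in the escalating library and 18.9% in the nonescalating one. The part of that gap in the ratios of overlapped genes was not tested. Over 5% of the 50-base stretches of the transcripts, or of the exon bases, were shared with or overlapped by another annotated gene for 9 of the 43: Hmgcs1, Idi1, Fdps, Fdft1, Tm7sf2, Scap, Fabp5, Fabp3 and Acaca. Both genes called higher are among them. Fabp3 shares 37.3% of its stretches with other genes, most of them with the pseudogene Fabp3-ps1, and 19.6% of its exon bases lie opposite other exons. Tm7sf2 overlaps Vps51 on the same strand over 12.1% of its exon bases. Fdft1 overlaps Ctsb on the opposite strand over 18.3%, and the sources used here do not give the strand setting of the counting. Without these 9 genes, 17 were called lower and 0 higher, with a median of -0.59, a check added after the data were seen. Scd1 and Scd2 shared 4.56% and 3.97% of their stretches with other genes, and the other genes with the widest gaps, Apoe, Clu, Abca1, Fabp7 and Fads1, shared 0%, with 0.152% for Fads2.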

How the data were processed

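RNA from dorsal striatum input of the escalating and nonescalating groups was sequenced as 1 library per group, and groups were taken from the titles. Per the submitters' processing notes, alignment by the authors was with STAR 2.0.0e to mm10 and counting with HTSeq. The HTSeq version, strand setting and gene models were not given in the sources used here. Each deposited file lists unnormalised counts by symbol. Rows for unassigned reads stayed out of library sizes. Assigned reads were 53.8% (escalating) and 55.3% (nonescalating) of those listed, and a count of 0 allows up to 3 counts, or 0.277 and 0.363 CPM.

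TMM factors (1.13 and 0.882) came from edgeR 4.0.16 in R 4.3.3. CPM values use the scaled sizes, log2 ratios a pseudocount of 0.5 counts, and folds none. Tests of edgeR and DESeq2 need replicates and were not run. Exact intervals were at the 95% level, and calls needed 1.5-fold. Reads are not independent molecules, so intervals and floors cover counting error only. Every one of the 43 members is accounted for. Of the other pathway genes, those called and some of the most abundant were to be named, of which a selection is printed, and the values of 1 of them are not reported here. Members and lists were chosen with earlier results of these data known. Coordinates, exon lengths and overlaps came from GENCODE M21 on the same build, and promoters from RefSeq on GRCm38.p6. Calls were tested on simulated data. That simulation drew counting noise only, with no variation between animals or libraries. Alternatives were DESeq2 1.42.0 size factors, other scalings, filters, pseudocount and fold. Intervals, summaries and plots were made in Python 3.11.15 (scipy 1.17.1, pandas 2.3.3, matplotlib 3.10.9).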

Additional observations from a re-analysis of the deposited data

How the results depend on the processing

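No replicate could be left out and no paired analysis was possible because each group has 1 library and the labels give no shared replicate. DESeq2 size factors and filters of 10 counts or 1 count changed no call among the 43 genes, and a pseudocount of 5 lost only Sqle. With total-read scaling the genes called higher were 6, the median -0.12, and the other pathway genes called higher 9. Over all measured genes 31.5% were then higher and 9.40% lower. The medians by role were then 0.18 for the mevalonate arm (0 lower, 1 higher), 0.03 for squalene and sterol steps (2 higher), -0.34 for SREBP control (1 lower), -0.08 for lipoproteins, uptake and efflux, 0.80 for fatty acid binding proteins (2 higher), -0.75 for fatty acid synthesis and desaturation (1 higher) and -0.28 for sterol turnover and storage. Leaving the 10 most abundant genes out of the totals gave a median of -0.37, and by role, in the same order, -0.07 (0 lower), -0.22 (2 higher), -0.60, -0.34, 0.55, -1.0 and -0.53. Upper-quartile scaling left 0 lower in the mevalonate arm. At 2-fold, 1 of the 43 was higher, 0 of the mevalonate arm and 1 of SREBP control were lower, squalene and sterol steps had 3 lower and 0 higher, and 1 other pathway gene was higher. Shares over all measured genes are not given here for 2-fold, upper-quartile scaling or totals without the 10 most abundant genes. The counts at those settings therefore have no background beside them. Without genes of shared or overlapping sequence, a setting chosen after seeing the data, 0 were higher and the median was -0.59. The shifts under other scalings follow from the settings, since a scaling moves every ratio by 1 amount. The 2-fold threshold and the removal of genes move no ratio and change only which genes are called or counted. The 13 genes still called lower at 2-fold, among them Scd1, Fads2, Fads1, Apoe, Abca1, Fabp7, Clu and Scd2, were lower by the 1.5-fold rule under each scaling run. Mvk, Mvd, Fdps, Ebp, Dhcr7 and Nr1h2 have intervals that hold both 1 and 1.5-fold. For these genes, equal levels and a difference of that size both lie within counting error.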

Other observations

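The 43 genes resembled all measured genes in transcript make-up. Their median exon length was 4594 bases and the median GC content of the longest transcript 49.5%, beside 4898 bases and 49.4% over all measured genes with an annotation. The 19 genes called lower had medians of 4866 bases and 48.2%, and the 22 not called 4410.5 bases and 50.8%. Across the 43 genes, which share both libraries and are not independent, the log2 ratio had a Pearson correlation of -0.04 with log2 exon length and of 0.08 with GC content, given as a description. Neu4, an oligodendrocyte precursor marker, was the only gene of the 5 glial and endothelial marker lists called higher in the escalating library, with 96 and 42 counts.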
